A study of Homo sapiens with 6 samples.

Results

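The Hippo pathway genes described here are 10 rows of the 57905 in a deposited expression table, taken by gene symbol: the effectors YAP1 and WWTR1 (which encodes TAZ), the DNA-binding partner TEAD1, the kinases LATS1 and LATS2, and the target genes CTGF, CYR61, ANKRD1, AMOTL2 and NUAK2. All 10 were found, each in 1 row. RNA was sequenced from SKOV3, an established human ovarian carcinoma line. The group labelled CPT1Ash was 3 libraries of cells with a short hairpin RNA against CPT1A, and the group labelled WT was 3 libraries of cells without it, all in normal culture. The labels mention no control hairpin, and sh2, a tag in the column names of the CPT1Ash group, has no explanation there. The effect of carrying a hairpin and that of losing CPT1A cannot be told apart. The labels number the libraries of each group as biological replicates without saying whether the hairpin was introduced separately for each. The p-values set the difference between the groups against the spread between these libraries. That spread may not include the variation between separate introductions of the hairpin.

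In the Hippo pathway the kinases MST1 and MST2 (genes STK4 and STK3) activate LATS1 and LATS2, which phosphorylate YAP and TAZ and so hold them in the cytoplasm. When the kinases are inactive, YAP and TAZ enter the nucleus, bind TEAD factors and drive genes of growth, adhesion and matrix signalling; CTGF, CYR61 and ANKRD1 are the targets most often used to read this out. The pathway feeds back on itself, since LATS2 and AMOTL2 are themselves YAP targets that restrain YAP. Control lies mostly in phosphorylation and location of the proteins, which RNA levels do not measure.

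Library totals were 15740143 to 22271565 counts, and 12784 genes had at least 1 FPKM (fragments per kilobase of exon, scaled to the library's total) in at least 3 libraries and were tested. CPT1A, which encodes the outer-membrane enzyme of fatty acid import into mitochondria, was at 2.16, 2.00 and 1.96 FPKM in the CPT1Ash libraries, against 6.70, 8.06 and 8.0 FPKM in the WT libraries (3.91-fold lower, edgeR adjusted p = 3.3e-06). Log2 CPM values are counts scaled to the library's total over the tested genes, adjusted by edgeR's TMM scaling factor. On their first principal component WT replicate 2 lay at 17.7, between the other WT libraries and the CPT1Ash libraries. The other WT libraries lay at 36.05 and 34.6 and the CPT1Ash libraries at -26.5 to -32.9. Of 8 markers of this line or of ovarian carcinoma in general, 7 were tested, with MUC16 below the minimum. Of these, 4 (KRT7, KRT8, KRT19 and PAX8) were called lower in CPT1Ash libraries, against 13.7% of all genes tested. EPCAM, KRT18 and ERBB2 were not called, with log2 changes of -0.31, -0.12 and 0.19. The summed level was 1100 to 1260 FPKM in CPT1Ash and 1610 to 1970 FPKM in WT libraries. The summed levels of markers of fibroblasts (5 genes), endothelium (4 genes) and leukocytes (5 genes) stayed at or below 1.27 FPKM in every library, with no marker of these lists above the minimum. The fibroblast sum was 0.11 to 0.29 FPKM in CPT1Ash and 0.85 to 1.27 FPKM in WT libraries, the endothelial sum 0.43 to 0.65 and 0.17 to 0.24 FPKM, and the leukocyte sum 0.52 to 0.53 and 0.48 to 0.98 FPKM, with CD3E at 0 counts in all 6. The part of these differences in the results below was not tested.

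TEAD factors recognise the word GGAATG, or CATTCC on the other strand, so the bases just before the transcription start show which targets carry it there. RefSeq promoters (build GRCh38.p14, 250 bases before to 50 after a start) were found for 8 of the 10 genes, all but TEAD1 and CYR61, and of their 11 windows 6, of 6 different genes, held the word. The word stood in 14% of all 35116 RefSeq windows of the same length, with 2 or more copies in 1.37% and 3 or more in 0.128%. The 4 target promoters with it follow, each as the 250 bases before the start, 5′ to 3′ on the gene's strand, with every GGAATG and CATTCC in capitals; they are shown because 2 of these genes fell and 2 did not pass the test or the minimum.
CTGF, chr6:131951373-131951622, minus strand: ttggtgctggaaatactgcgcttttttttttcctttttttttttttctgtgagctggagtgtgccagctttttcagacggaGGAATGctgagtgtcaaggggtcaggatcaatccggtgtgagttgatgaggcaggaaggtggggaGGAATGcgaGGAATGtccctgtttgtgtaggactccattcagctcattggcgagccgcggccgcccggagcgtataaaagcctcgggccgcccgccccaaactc
NUAK2, chr1:205321746-205321995, minus strand: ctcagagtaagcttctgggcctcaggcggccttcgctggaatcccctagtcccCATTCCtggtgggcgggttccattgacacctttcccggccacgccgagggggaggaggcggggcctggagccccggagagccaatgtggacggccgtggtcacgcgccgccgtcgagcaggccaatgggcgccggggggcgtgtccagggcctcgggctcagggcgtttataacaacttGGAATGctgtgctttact
ANKRD1, chr10:90921088-90921337, minus strand: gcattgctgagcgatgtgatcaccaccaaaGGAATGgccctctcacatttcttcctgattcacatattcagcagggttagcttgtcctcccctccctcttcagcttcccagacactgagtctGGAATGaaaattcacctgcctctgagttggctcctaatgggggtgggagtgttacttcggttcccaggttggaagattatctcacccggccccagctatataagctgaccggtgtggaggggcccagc
AMOTL2, chr3:134374448-134374697, minus strand: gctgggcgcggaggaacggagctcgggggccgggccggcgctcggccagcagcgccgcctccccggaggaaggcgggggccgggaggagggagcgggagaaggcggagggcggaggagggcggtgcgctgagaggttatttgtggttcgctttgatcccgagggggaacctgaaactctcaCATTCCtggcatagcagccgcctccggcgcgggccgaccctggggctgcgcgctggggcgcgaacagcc

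The words of CTGF began 169, 104 and 95 bases before the start, those of NUAK2 197 and 18 bases before, those of ANKRD1 220 and 128 bases before and that of AMOTL2 69 bases before. AMOTL2 has another RefSeq start whose window did not hold the word. LATS2 held it 9 bases after its start and YAP1 162 bases before. A match of letters is a description and not a site, the 2 forms are reverse complements of each other, and no binding was measured here.

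Over the 10 genes, 3 targets fell and 1 kinase rose in CPT1Ash libraries, each by 2.10-fold to 2.37-fold, while the effectors, TEAD1, LATS1 and AMOTL2 did not pass the test. The test was edgeR's quasi-likelihood test with Benjamini-Hochberg adjustment over all 12784 genes and a threshold of 0.05. Of the 9 genes tested, 4 were called, against 27.4% of all genes tested; 1 was called higher, against 13.8%, and 3 lower, against 13.7%. The groups did not overlap in 4 of the 9, against 42.6% of all genes tested. The median log2 change of the 9 was 0.07, against -0.01 over all genes tested.

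**Figure D1:**
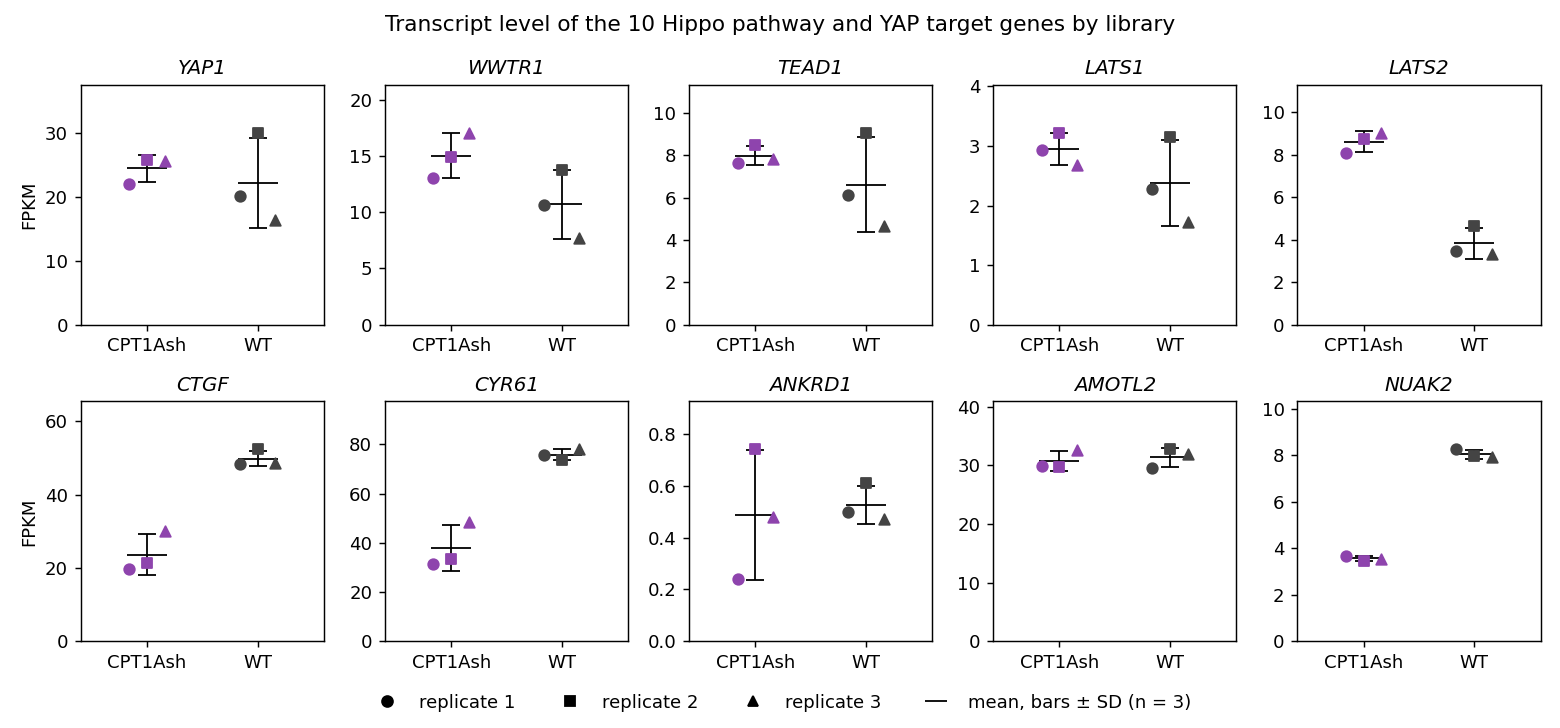
FPKM of each of the 10 genes in the 3 CPT1Ash and 3 WT libraries, with 1 symbol per replicate, a line at the mean and bars of ± SD (n = 3); each panel has its own axis from 0. LATS2 lies above, and CTGF, CYR61 and NUAK2 lie below, the range of the WT libraries, while WT replicate 2 is the highest WT library for YAP1, WWTR1, TEAD1, LATS1 and LATS2.

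Among the targets, CTGF, a secreted matricellular protein of the CCN family (chromosome 6 from 132269316 to 132272513 on the minus strand, in the coordinates of the authors' table), had 19.6, 21.3 and 30.01 FPKM in CPT1Ash libraries, against 48.5, 52.4 and 48.75 FPKM in WT libraries. Every CPT1Ash library lay below every WT library, and CPT1Ash replicate 3 was the highest of its group. The log2 change was -1.15 ± 0.19 (SE), a fall of 2.21-fold (edgeR adjusted p = 0.000249). In bulk RNA a lower level in every cell and fewer expressing cells cannot be told apart.

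CYR61, another secreted CCN protein that acts on adhesion through integrins (chromosome 1 from 86046444 to 86049645, plus strand), had 31.5, 33.4 and 48.6 FPKM in CPT1Ash libraries, against 75.8, 73.7 and 77.9 FPKM in WT libraries. The groups did not overlap, and CPT1Ash replicate 3 was again the highest of its group. CYR61 fell by 1.07 ± 0.20 (SE) on the log2 scale, or 2.10-fold (edgeR adjusted p = 0.000359).

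CTGF and CYR61 varied together among the CPT1Ash libraries but not among the WT libraries, where their deviations from the group mean were small and of opposite sign in each library. CPT1Ash replicate 3 exceeded CPT1Ash replicate 1 by 0.63 in CTGF and by 0.64 in CYR61 on the log2 CPM scale; 3.10% and 2.91% of all genes tested had a larger difference between these 2 libraries. The ratio of CTGF to CYR61 in FPKM was 0.626 ± 0.010 in CPT1Ash and 0.659 ± 0.046 in WT libraries (SD, n = 3 each), and the ranges of the groups overlapped. When the log2 CPM values of each gene were centred over the 6 libraries, CYR61 was the closest of 12783 genes to CTGF by Euclidean distance, at 0.167. This distance holds the difference between the groups as well as the spread within them. PMEPA1, a TGF-beta-inducible membrane protein, followed at 0.209 and BATF3, a transcription factor of the AP-1 family, at 0.270. PMEPA1 averaged 15.0 ± 4.4 FPKM in CPT1Ash and 31.0 ± 1.1 FPKM in WT libraries, and BATF3 0.95 ± 0.21 and 2.00 ± 0.21 FPKM (SD, n = 3 each). BATF3 had 36 to 61 counts in CPT1Ash and 97 to 115 counts in WT libraries. Only replicate 3 of its CPT1Ash libraries reached 1 FPKM, so BATF3 was tested because of its WT libraries.

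NUAK2, an AMPK-related kinase acting on actomyosin and a YAP target (chromosome 1 from 205271187 to 205290883, minus strand), had 3.67, 3.47 and 3.54 FPKM in CPT1Ash libraries, against 8.25, 7.95 and 7.91 FPKM in WT libraries. The 3 libraries of each group lay close together, and the groups did not overlap. Its log2 change was -1.25 ± 0.04 (SE), a fall of 2.37-fold (edgeR adjusted p = 9.16e-05).

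AMOTL2, a junction protein of the motin family that binds YAP and is one of its targets (chromosome 3 from 134074716 to 134094321, minus strand), had 29.8, 29.8 and 32.6 FPKM in CPT1Ash libraries, against 29.5, 32.7 and 31.9 FPKM in WT libraries. The groups overlapped, with a log2 change of -0.10 ± 0.06 (SE) that did not pass the test (edgeR adjusted p = 0.4995). All 6 libraries lay between 29.5 and 32.7 FPKM.

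ANKRD1, a muscle ankyrin repeat protein whose gene is a standard YAP reporter in other cells (chromosome 10 from 92671853 to 92681033, minus strand), was barely detected. It had 9, 23 and 18 counts in CPT1Ash libraries, against 18, 27 and 18 counts in WT libraries, or 0.24 to 0.74 FPKM against 0.47 to 0.61 FPKM. It was below the minimum of 1 FPKM and so was not among the genes tested. With looser filters its log2 change was -0.21 both with no filter (edgeR adjusted p = 0.794) and with edgeR's own filter (edgeR adjusted p = 0.749), and a difference was not detectable at this depth.

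Of the kinases, LATS2 (chromosome 13 from 21547171 to 21635686, minus strand) rose. It had 8.08, 8.73 and 9.03 FPKM in CPT1Ash libraries, against 3.47, 4.66 and 3.35 FPKM in WT libraries. The lowest CPT1Ash library lay well above the highest WT library, which was replicate 2. The log2 change was 1.10 ± 0.14 (SE), a rise of 2.15-fold (edgeR adjusted p = 0.000257), so that this YAP target moved in the opposite direction to CTGF, CYR61 and NUAK2.

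LATS1, the paralogous kinase (chromosome 6 from 149979289 to 150039392, minus strand), had 2.94, 3.22 and 2.68 FPKM in CPT1Ash libraries, against 2.27, 3.15 and 1.72 FPKM in WT libraries. WT replicate 2 fell within the range of the CPT1Ash libraries, and the log2 change of 0.24 ± 0.24 (SE) did not pass (edgeR adjusted p = 0.378). Per length, LATS2 RNA was 2.75, 2.71 and 3.37 times that of LATS1 in CPT1Ash libraries, against 1.53, 1.48 and 1.95 times in WT libraries. These ratios did not overlap between the groups, WT replicate 2 included.

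**Figure D2:**
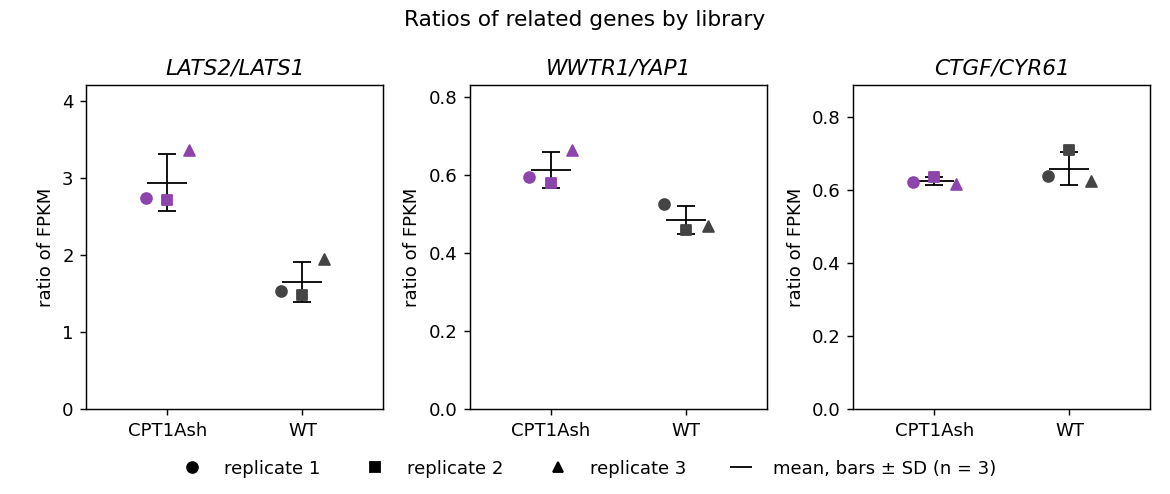
Ratios of FPKM between related genes in each library, by group, with 1 symbol per replicate, a line at the mean and bars of ± SD (n = 3), each axis from 0. The LATS2 to LATS1 ratio is 2.94 ± 0.37 in CPT1Ash and 1.65 ± 0.26 in WT libraries, the WWTR1 to YAP1 ratio 0.614 ± 0.045 and 0.485 ± 0.037, and the CTGF to CYR61 ratio overlaps between the groups.

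The effectors YAP1 and WWTR1 each had a higher mean FPKM than TEAD1, LATS1 and LATS2 in both groups. This order did not extend to all pathway genes, since TEAD4, another TEAD gene, had a higher mean than WWTR1 in both groups. YAP1 (chromosome 11 from 101981192 to 102104154, plus strand), the coactivator that LATS kinases inhibit, had 21.9, 25.7 and 25.6 FPKM in CPT1Ash libraries, against 20.1, 29.96 and 16.4 FPKM in WT libraries. The WT libraries spanned the whole range of the CPT1Ash libraries, and the log2 change was 0.07 ± 0.25 (SE; edgeR adjusted p = 0.778).

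WWTR1, whose product TAZ is the paralog of YAP (chromosome 3 from 149235022 to 149454501, minus strand), had 13.05, 14.9 and 17.0 FPKM in CPT1Ash libraries, against 10.6, 13.8 and 7.68 FPKM in WT libraries. Only WT replicate 2 overlapped with the CPT1Ash libraries. The log2 change of 0.42 ± 0.25 (SE) did not pass (edgeR adjusted p = 0.0861). The WWTR1 to YAP1 ratio was 0.595, 0.581 and 0.665 in CPT1Ash libraries, against 0.527, 0.460 and 0.469 in WT libraries, and these values did not overlap.

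TEAD1, which tethers YAP and TAZ to DNA (chromosome 11 from 12695969 to 12966298, plus strand), had 7.62, 8.49 and 7.84 FPKM in CPT1Ash libraries, against 6.12, 9.06 and 4.64 FPKM in WT libraries. The WT libraries again lay on both sides of the CPT1Ash libraries (log2 change 0.21 ± 0.26 SE, edgeR adjusted p = 0.423). TEAD1 was the least abundant of the 4 TEAD genes per length in each of the 6 libraries. TEAD4 had 23.8 ± 1.2 FPKM in CPT1Ash and 22.4 ± 2.7 FPKM in WT libraries (SD, n = 3 each; edgeR adjusted p = 0.95), and TEAD3 13.4 ± 0.9 and 14.9 ± 1.5 FPKM (edgeR adjusted p = 0.233). TEAD2 was the TEAD gene that fell, with 13.9 ± 1.3 FPKM in CPT1Ash and 18.8 ± 1.4 FPKM in WT libraries (1.43-fold, edgeR adjusted p = 0.0124), a call lost without CPT1Ash replicate 2 (edgeR adjusted p = 0.0891) and without WT replicate 1 (edgeR adjusted p = 0.0608). The summed TEAD level was 57.7 to 60.7 FPKM in CPT1Ash and 60.0 to 66.6 FPKM in WT libraries.

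The 5 machinery genes had the same order of the WT libraries. In all 5 of YAP1, WWTR1, TEAD1, LATS1 and LATS2, WT replicate 2 was the highest, replicate 1 the middle and replicate 3 the lowest WT library, an order held by 28.5% of all genes tested. Among genes of 6000 to 12000 exonic bases, where all of these but LATS2 lie, 42.5% held that order, against 29.9% of genes of 3000 to 6000 bases, where LATS2, AMOTL2 and NUAK2 lie, and 13.2% of genes of 1500 to 3000 bases, where CTGF and CYR61 lie. WT replicate 2 exceeded replicate 3 by 0.80 in YAP1, 0.78 in WWTR1, 0.90 in TEAD1, 0.80 in LATS1 and 0.41 in LATS2 on the log2 CPM scale. Between 5.40% (TEAD1) and 8.57% (WWTR1) of all genes tested had a larger difference than the first 4 of these, and 23.8% a larger one than LATS2. In CTGF, CYR61, AMOTL2 and NUAK2 the same difference was between -0.15 and 0.04.

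**Figure D3:**
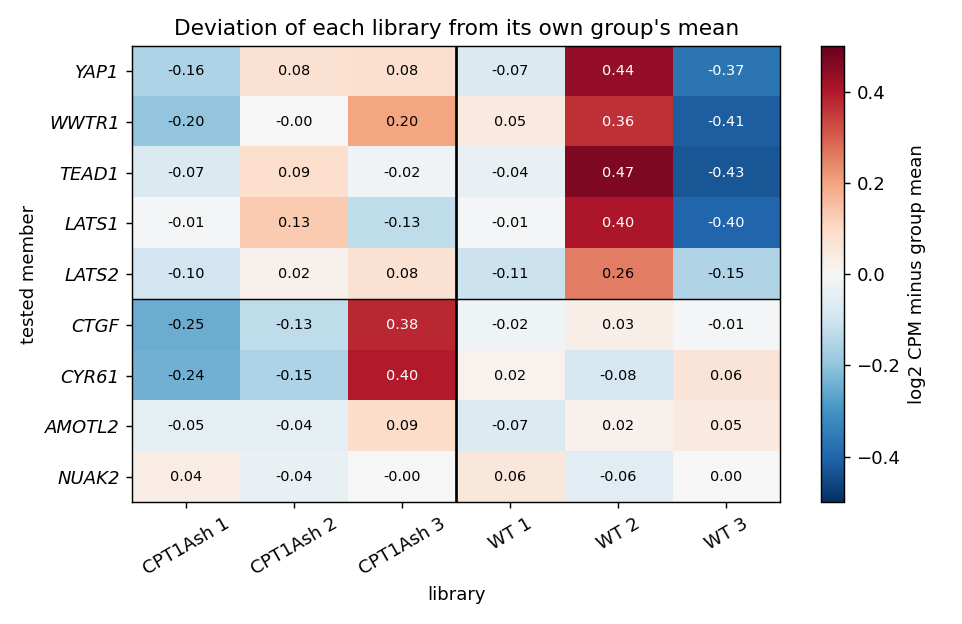
Log2 CPM of each tested gene in each library minus the mean of its own group; columns are libraries with CPT1Ash left of the line, rows are genes with the machinery above the line, and red is above and blue below the group mean. WT replicate 2 is the highest and WT replicate 3 the lowest WT library in all 5 machinery genes, and CPT1Ash replicate 3 stands 0.38 and 0.40 above its group in CTGF and CYR61.

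Leaving out WT replicate 2 changed the count of called genes among the machinery. Without it 5 of the 9 tested genes were called higher in place of 1: YAP1 with a log2 change of 0.33 (edgeR adjusted p = 0.041), WWTR1 with 0.63 (edgeR adjusted p = 0.00662), TEAD1 with 0.48 (edgeR adjusted p = 0.0111) and LATS1 with 0.47 (edgeR adjusted p = 0.034), beside LATS2 with 1.24 (edgeR adjusted p = 6.42e-05). Over all genes the calls went up as well without that library, to 2539 higher and 2511 lower, against 1762 and 1747 with it. The 3 lower targets were called in each of the 15 alternatives, with log2 changes of -1.36 to -1.01 for CTGF, -1.30 to -0.94 for CYR61 and -1.27 to -0.99 for NUAK2. LATS2 was called in all 15, from 1.00 to 1.24.

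The spread between WT libraries moved with the exonic length of the gene. The median difference between WT replicates 2 and 3 was -0.12 on the log2 scale in 1765 genes of up to 1500 exonic bases, -0.20 in 2404 genes of 1500 to 3000 bases, -0.02 in 4786 genes of 3000 to 6000 bases, 0.18 in 3385 genes of 6000 to 12000 bases and 0.36 in 444 longer genes. The 5 machinery genes had 5739 (LATS2) to 10816 (TEAD1) exonic bases and the 5 targets 1979 (ANKRD1) to 5984 (AMOTL2), beside a median of 4235 over all genes tested. With the length trend of each library removed, an alternative added after seeing the data, the log2 changes were 0.01 for YAP1, 0.02 for TEAD1, 0.10 for LATS1 and 0.29 for WWTR1, none of them called, against 1.05 for LATS2, -1.01 for CTGF, -0.94 for CYR61 and -1.17 for NUAK2, all called. The part of exonic length in these differences was not tested beyond this correction, and the length of the transcripts present was not measured.

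The order of the 10 genes by level (FPKM, which is per length) differed between the groups in the places of CTGF, NUAK2, AMOTL2, YAP1 and LATS2. In CPT1Ash libraries the order from the highest mean was CYR61, AMOTL2, YAP1, CTGF, WWTR1, LATS2, TEAD1, NUAK2, LATS1 and ANKRD1, and the ranges of CYR61 and AMOTL2, of YAP1 and CTGF, and of LATS2 and TEAD1 overlapped. In WT libraries it was CYR61, CTGF, AMOTL2, YAP1, WWTR1, NUAK2, TEAD1, LATS2, LATS1 and ANKRD1; the ranges overlapped between AMOTL2 and YAP1 and between each neighbouring pair from WWTR1 to LATS2. CTGF thus had a mean above AMOTL2 in WT libraries and below it in CPT1Ash libraries, where CTGF reached 30.01 FPKM in its highest library and AMOTL2 29.8 FPKM in its lowest.

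No gene on either strand overlapping 1 of the 10 in the authors' table had more than 80 counts summed over a group, the largest being WWTR1-AS1 with 67 counts in CPT1Ash and 80 counts in WT libraries. Since the labels do not say whether the counting used strand, reads of WWTR1 and its antisense gene cannot be told apart, and these numbers stand beside 6739 counts in CPT1Ash and 5453 counts in WT libraries for WWTR1.

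The other genes of the pathway come from lists of regulators and targets. Of 37 regulators 32 were tested, of which 10 were higher and 2 lower in CPT1Ash libraries, against 13.8% and 13.7% of all genes tested. Their median log2 change was 0.08. Long genes were called higher more often in general: among the 3829 tested genes of over 6000 exonic bases 24.1% were called higher and 8.04% lower. Of the 32 regulators 24 were of that length, and 10 of these 24 were called higher and 1 lower.

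Among 15 tested upstream regulators 4 were higher and none lower, against 13.8% and 13.7% of all genes tested. All 4 have over 6000 exonic bases, a length at which 24.1% of genes were called higher. WWC3, of the KIBRA family of LATS activators, rose to 13.0 ± 0.8 FPKM in CPT1Ash libraries, against 6.39 ± 0.90 FPKM in WT libraries (1.94-fold, edgeR adjusted p = 0.000243). The giant cadherin gene FAT1 rose 1.88-fold, with 11.96 ± 2.53 FPKM in CPT1Ash and 6.05 ± 1.42 FPKM in WT libraries (edgeR adjusted p = 0.00174), and its log2 change of 0.91 was 0.61 with the length trend removed. MAP4K4, a kinase that can phosphorylate LATS in parallel to MST1 and MST2, rose 1.46-fold (38.8 ± 2.3 FPKM in CPT1Ash and 25.3 ± 2.4 FPKM in WT libraries, edgeR adjusted p = 0.00199), a call lost with the length trend removed (edgeR adjusted p = 0.0545). TAOK3, of the kinases that activate MST, had 5.04 ± 0.41 FPKM in CPT1Ash and 3.51 ± 0.51 FPKM in WT libraries (1.37-fold, edgeR adjusted p = 0.0265), a call that did not hold with the length trend removed (edgeR adjusted p = 0.162) or without CPT1Ash replicate 2, CPT1Ash replicate 3, WT replicate 1 or WT replicate 3 (edgeR adjusted p = 0.0546 to 0.12). NF2, the tumour suppressor merlin, had 18.0 ± 1.1 FPKM in CPT1Ash and 17.8 ± 0.8 FPKM in WT libraries and did not pass (edgeR adjusted p = 0.714).

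In the kinase core 1 of 4 tested partners rose and none fell, against 13.8% and 13.7% of all genes tested. The 1 that rose has over 6000 exonic bases, a length at which 24.1% of genes were called higher. STK4, which encodes MST1, had 11.4, 13.7 and 13.2 FPKM in CPT1Ash libraries, against 5.17, 6.94 and 4.25 FPKM in WT libraries. The groups did not overlap, with WT replicate 2 again the highest of its group, and the rise was 2.24-fold (log2 change 1.16 ± 0.20 SE, edgeR adjusted p = 0.000266). Its paralog STK3, which encodes MST2, had 1.62 ± 0.10 FPKM in CPT1Ash and 1.67 ± 0.36 FPKM in WT libraries (edgeR adjusted p = 0.668). The scaffold SAV1 (edgeR adjusted p = 0.668) and the LATS coactivator MOB1A (edgeR adjusted p = 0.749) did not pass either, and MOB1B was below the minimum.

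Inhibitors of LATS and MST moved in both directions. Of 7 tested genes LIMD1 and STRN were higher and WTIP lower, with log2 changes of 0.59, 0.69 and -0.53 (edgeR adjusted p = 0.0261, 0.036 and 0.0177). Of all genes tested, 13.8% were called higher and 13.7% lower. All 3 called genes have over 6000 exonic bases, a length at which 24.1% were called higher and 8.04% lower. LIMD1 and WTIP are LIM proteins that bind LATS, and STRN is a striatin of the phosphatase complex that acts on MST. The 3 calls were lost on removing any of several libraries, with changes in the same direction. Without WT replicate 1 the log2 changes were 0.48 for LIMD1, 0.65 for STRN and -0.52 for WTIP, with edgeR adjusted p = 0.139, 0.142 and 0.0774, and without CPT1Ash replicate 2 they were 0.57, 0.67 and -0.50, with edgeR adjusted p = 0.0803, 0.0722 and 0.0852. Other libraries whose removal ended a call were CPT1Ash replicate 1 for LIMD1, and CPT1Ash replicate 3 and WT replicate 3 for STRN and WTIP. The length correction also ended the call of LIMD1 (edgeR adjusted p = 0.122). With limma on log2(FPKM + 0.1) none of the 3 calls held (limma adjusted p = 0.0675 for LIMD1, 0.0527 for STRN and 0.051 for WTIP). On log2(FPKM + 1) only that of STRN held (limma adjusted p = 0.0479).

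Among the partners that bind YAP or TEAD, AMOTL1 and VGLL4 were higher, and AMOT, VGLL1 and VGLL3 were below the minimum. AMOTL1, the motin related to AMOTL2, had 9.07 ± 0.16 FPKM in CPT1Ash and 5.47 ± 0.88 FPKM in WT libraries (1.58-fold, edgeR adjusted p = 0.00221). VGLL4, which competes with YAP for TEAD, had 8.33 ± 0.74 FPKM in CPT1Ash and 4.93 ± 0.64 FPKM in WT libraries (1.61-fold, edgeR adjusted p = 0.00276). AMOTL1 and VGLL4 have over 6000 exonic bases, a length at which 24.1% of genes were called higher. With the length trend removed their log2 changes of 0.66 and 0.69 were 0.47 and 0.59, both still called.

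**Figure D4:**
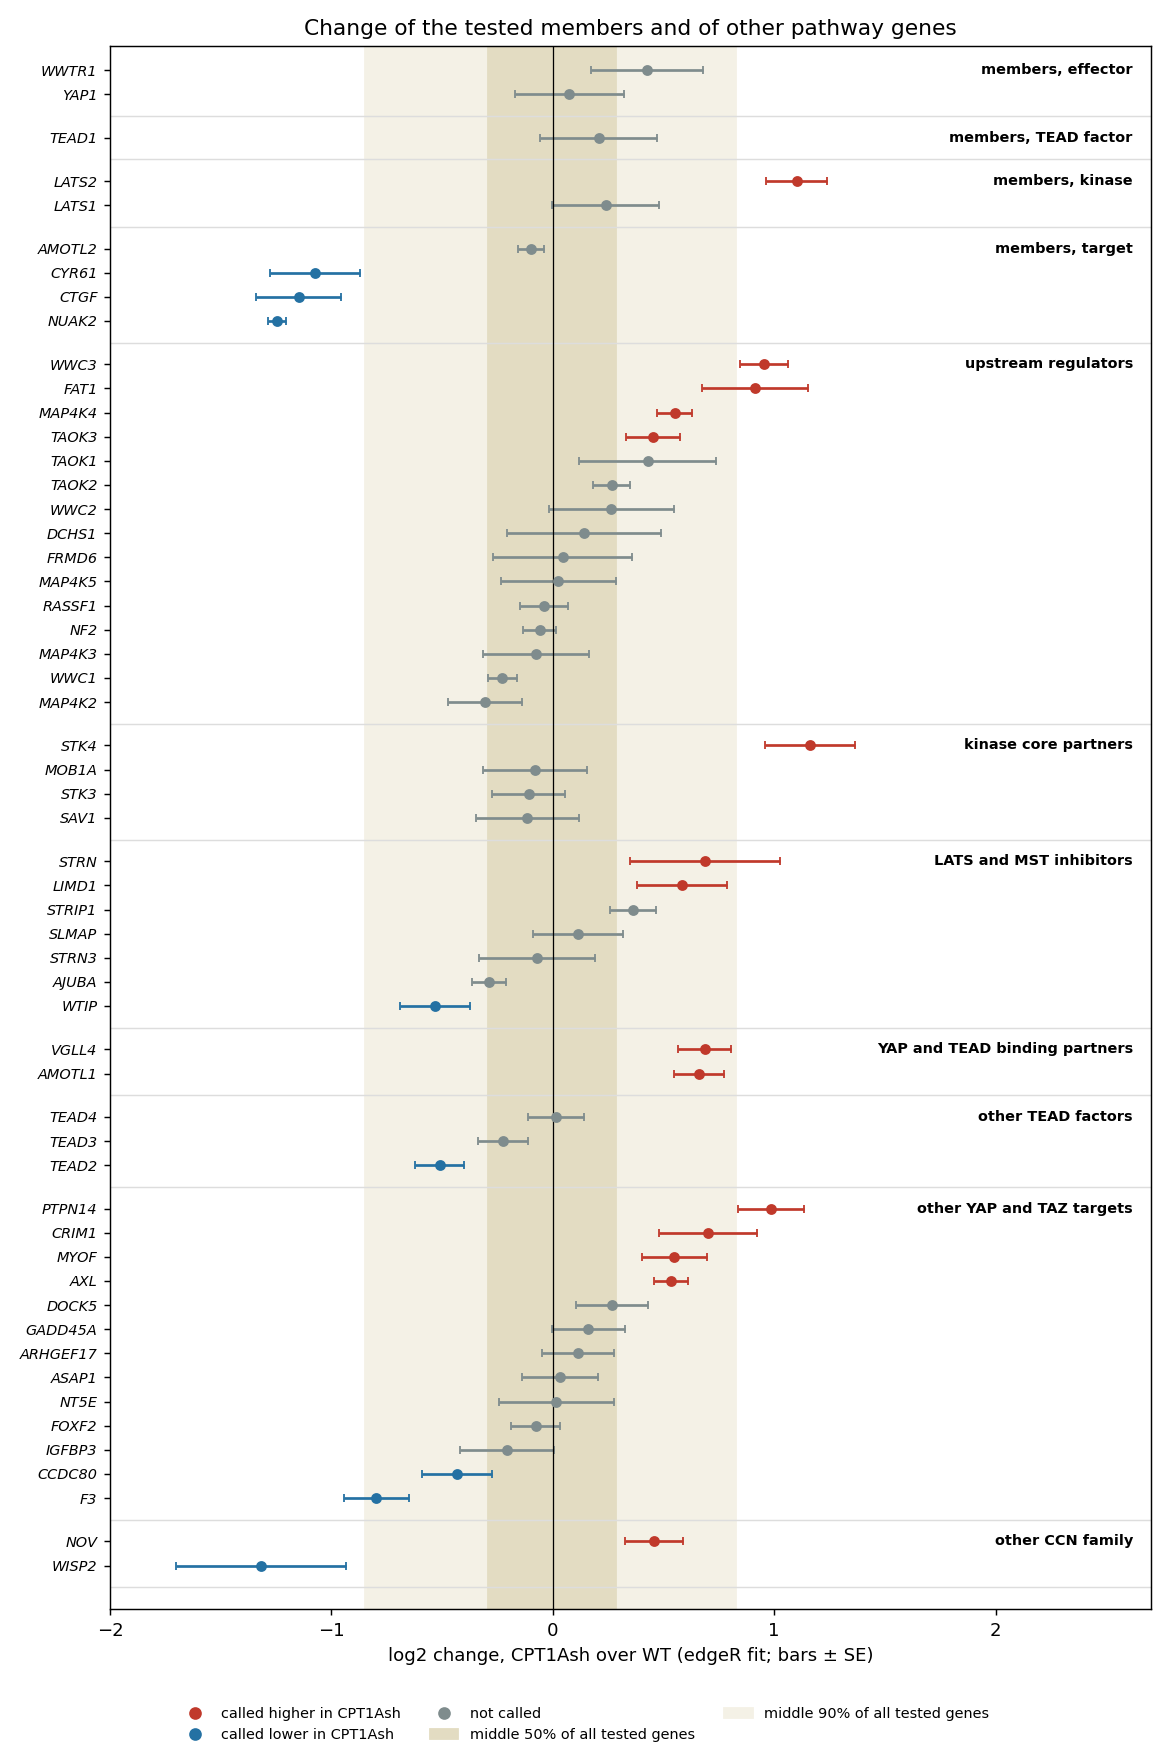
Log2 change (CPT1Ash over WT, edgeR fit, bars of ± SE) of the 9 tested genes and of other tested pathway genes, grouped by role; red was called higher and blue lower, and the wider band runs from the 5th to the 95th percentile of all genes tested (-0.85 to 0.83). CTGF, CYR61, NUAK2 and WISP2 lie left of it and LATS2, STK4, WWC3, FAT1 and PTPN14 right of it, while the 13 other YAP and TAZ targets lie from -0.80 to 0.99.

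The other YAP and TAZ targets were divided. Of 16 on the list 13 were tested; 4 were higher and 2 lower, against 13.8% and 13.7% of all genes tested, with a median log2 change of 0.11. Of the 6 targets of over 6000 exonic bases 3 were called higher, against 24.1% of all genes of that length. PTPN14, a phosphatase that also binds and restrains YAP, rose to 6.89 ± 0.65 FPKM in CPT1Ash libraries, against 3.32 ± 0.61 FPKM in WT libraries (1.98-fold, edgeR adjusted p = 0.000282); its log2 change of 0.99 was 0.64 with the length trend removed. The receptor tyrosine kinase AXL, with 71.1, 79.0 and 84.3 FPKM in CPT1Ash and 52.0, 52.65 and 49.5 FPKM in WT libraries, rose 1.45-fold (edgeR adjusted p = 0.00231). CRIM1, a BMP-binding membrane protein, rose 1.63-fold (edgeR adjusted p = 0.00602), and MYOF, a membrane repair protein, was the fourth higher gene, a call lost without WT replicate 1 (edgeR adjusted p = 0.0531).

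Of the lower targets, F3, the tissue factor that starts coagulation, had 94.2, 103.4 and 116.3 FPKM in CPT1Ash libraries, against 170.4, 203.0 and 147.3 FPKM in WT libraries. The groups did not overlap, and F3 fell 1.74-fold (edgeR adjusted p = 0.00059). The other, CCDC80, a matrix protein, was at the threshold (edgeR adjusted p = 0.0498) and its call was lost in 10 of 15 alternatives, without each library in turn except CPT1Ash replicate 3 among them. IGFBP3, an abundant secreted binding protein of insulin-like growth factors, had 116.6 ± 28.7 FPKM in CPT1Ash and 128.1 ± 6.4 FPKM in WT libraries and did not pass (edgeR adjusted p = 0.319).

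In the CCN family of CTGF and CYR61, 2 other genes were tested, 1 called higher and 1 lower, against 13.8% and 13.7% of all genes tested. NOV (CCN3) had 25.6, 22.8 and 18.7 FPKM in CPT1Ash libraries, against 14.7, 16.6 and 15.25 FPKM in WT libraries. It rose 1.37-fold (edgeR adjusted p = 0.0258), a call lost without CPT1Ash replicate 1 (edgeR adjusted p = 0.118), CPT1Ash replicate 2 (edgeR adjusted p = 0.103) or WT replicate 1 (edgeR adjusted p = 0.116). WISP2 (CCN5) had 1.70, 0.78 and 0.94 FPKM in CPT1Ash libraries, against 2.53, 2.22 and 3.38 FPKM in WT libraries. It fell 2.49-fold (edgeR adjusted p = 0.00358). Among the CPT1Ash libraries only replicate 1 reached 1 FPKM, so WISP2 was tested because of its WT libraries. WISP1 and WISP3 were below the minimum.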

How the data were processed

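The deposited table gives raw counts, whole-number reads per gene made by the authors, and FPKM values; the FPKM deposited equalled the count scaled by exonic length and by the library's summed counts, within 0.0051 in 100% of values. HTSeq 0.6.1, HISAT2 2.0.1, cutadapt 1.9.1 and DESeq2 appear, with no roles, in the submitters' processing notes. These name a mouse build although the table holds human genes, and no human build is stated, so gene coordinates are as in the table and promoter sequences on RefSeq's GRCh38.p14. Per the labels, both poly(A) selection and rRNA removal are named, and the strand is not stated.

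Genes reaching 1 FPKM in 3 or more of the 6 libraries had their counts compared with edgeR 4.0.16 (R 4.3.3), TMM scaling and quasi-likelihood tests, and p-values were adjusted over all genes tested. The SE of a log2 change comes from the spread of log2 CPM (prior count 2) within both groups. The alternatives used limma 3.58.1 and DESeq2 1.42.0, among others. The procedure was tested on simulated data. The 10 genes and the lists, written from general knowledge, were chosen with earlier results of these data known. Named were the 10 genes, CPT1A, the called genes of each list with values for up to 4, all TEAD genes, the 3 genes closest to CTGF and overlapping genes; NF2, STK3, SAV1, MOB1A, IGFBP3 and genes below the minimum were named after their values were seen. The values of 1 regulator, which the list totals include, are not reported here.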

Additional observations from a re-analysis of the deposited data

How the results depend on the processing

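Of the 15 alternatives, 14 were planned and the length correction was added after seeing the data. LATS2, CTGF, CYR61, NUAK2 and CPT1A kept direction and call in all 15, and AMOTL2 stayed uncalled and negative. The members called higher were 2 in place of 1 with no filter beyond 1 count (WWTR1, edgeR adjusted p = 0.017) and 2 with the replicate block (WWTR1, edgeR adjusted p = 0.0404); leaving out single libraries gave 1 to 5, with 5 without WT replicate 2, and 3 lower each time. The same removals gave 968 to 2539 genes called higher (968 without WT replicate 1, 1077 without CPT1Ash replicate 2), 914 to 2511 called lower, 7 to 15 regulators (7 without WT replicate 1 and 7 without CPT1Ash replicate 2, against 12) and 4 to 6 other targets. Leaving out single libraries gave YAP1 log2 changes of -0.083 (without WT replicate 3) to 0.33 (without WT replicate 2), and TEAD4 changes of -0.087 (without WT replicate 2) to 0.13, with -0.027 without CPT1Ash replicate 2; none of the negative values was called. Of the called genes, 61.8% were higher with total counts alone and 60.5% and 60.7% with limma on log2(FPKM + 1) and log2(FPKM + 0.1), against 50.2%. Libraries with the same replicate number did not deviate together (correlations -0.069, 0.00749 and -0.251), and no library correlated best with its own number. With 3 libraries per group, these values show no pairing by number but cannot exclude it. The replicate block gave 3261 called genes against 3509. Low counts limit ANKRD1.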
